A study of Mus musculus with 10 samples.

Results

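The genes described are those whose symbols mark them as myosins, myosin-binding proteins, troponins, tropomyosins or actins, the proteins that make and control force in a muscle cell. They were chosen by symbol, from array features with a single gene symbol, and the rule uses no measured value. The rule gave 27 features of 26 genes among 7697 features tested, 6752 of which carry 1 symbol. Myo9b has 2 features, told apart here by their GenBank numbers AF143685 and NM_015742. The members were grouped by the cells in which each form is known to be used. 3 are forms of fast skeletal fibres, 4 of slow fibres and 3 of heart, 4 are shared by the skeletal fibre types, 4 are smooth muscle or non-muscle forms, and 9 features are unconventional myosins. The sarcomeric myosin heavy chains and the myosin light chains are not among them and were not analysed here. Mylk entered through its symbol, although it encodes the kinase of a light chain and not a light chain.

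Quadriceps femoris was taken from male mice of the inbred strains CBA/CaOlaHsd (CBA), C57Bl/10ScSnOlaHsd (BL10), C57Bl/6JOlaHsd (BL6), DBA/2OlaHsd (DBA) and BALB/cOlaHsd (BALB), with 2 untreated animals per strain. All mice arrived at 6 weeks and were killed at 8 weeks of age. On every array the Cy5 animal was set against a Cy3 animal of a different strain, so each value is a log2 ratio of the first over the second and holds no level of expression in a single animal. An array is named below by its animals, with the Cy5 animal first, as in BALB 2 over BL6 2. Of 10 arrays, 2 (BL6 2 over CBA 1 and BALB 1 over CBA 2) hold identical values at every spot and were left out, because at least 1 of them cannot hold the animals on its label. The 8 arrays used form 2 chains without a common animal. The smaller chain has 3 arrays and joins CBA 1, BL10 1, BALB 2 and BL6 2, and the larger has 5 arrays and joins BALB 1, DBA 2, BL6 1, DBA 1, BL10 2 and CBA 2. On these arrays the r between duplicate spots was 0.645 to 0.853. Because ratios give no level, the tissue could not be checked against its defining markers, and the precision is limited by the number of arrays.

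Muscle shortens when myosin heads of the thick filament pull on the actin of the thin filament. Tropomyosin lies along the actin and covers the sites for myosin, and the troponin complex moves it aside when calcium binds. Troponin C binds the calcium, troponin I holds the filament off, and troponin T fastens the complex to tropomyosin. Fast fibres, slow fibres and heart use their own genes for these subunits, and mouse quadriceps is made mostly of fast fibres.

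A level is given below as the log2 ratio of a strain to the mean of the 5 strains, from a limma model with a term for each strain and, for each gene, a term for the difference between the dyes. Of the 27 features, 0 differed between strains at a false discovery rate (FDR) of 10% by limma's moderated F test, against 10 of 7697 features, or 0.130%. At an unadjusted p under 0.05, 7 features (25.9%) passed, namely Tpm1, Tpm2, Tnnt3, Acta1, Mybph, Tnnc2 and Mybpc3, while 14.0% of all features passed. By kind, these were 4 of 4 members shared by skeletal fibres, 2 of 3 fast forms, 1 of 3 heart forms and none of the 4 slow forms, the 4 smooth and non-muscle forms and the 9 unconventional myosins. The kinds were set with earlier results of these data known, so this split is a description and no test. By an ordinary F test without spread shared across features, 3 members passed, 2 of them among the 7, while 9.51% of all features passed. Leaving out an animal leaves 1 or 2 residual degrees of freedom, and the 7 then became 14 without BL6 1, 18 without DBA 1, 11 without BALB 1 and 15 without BALB 2, while 30.9% to 53.9% of all features passed. The count at an FDR of 10% became 4 without BL10 1 (1.66% of all features), 5 without BL10 2 (2.73%), 11 without BL6 1 (38.1%), 19 without DBA 1 (56.1%), 8 without BALB 1 (18.2%) and 16 without BALB 2 (53.2%), so calls over all features rose with those of the members. The range between the highest and the lowest strain had a median of 0.51 on the log2 scale over the members and 0.45 over all features. In whole muscle, fewer cells of a type and less RNA per cell cannot be told apart.

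**Figure D1:**
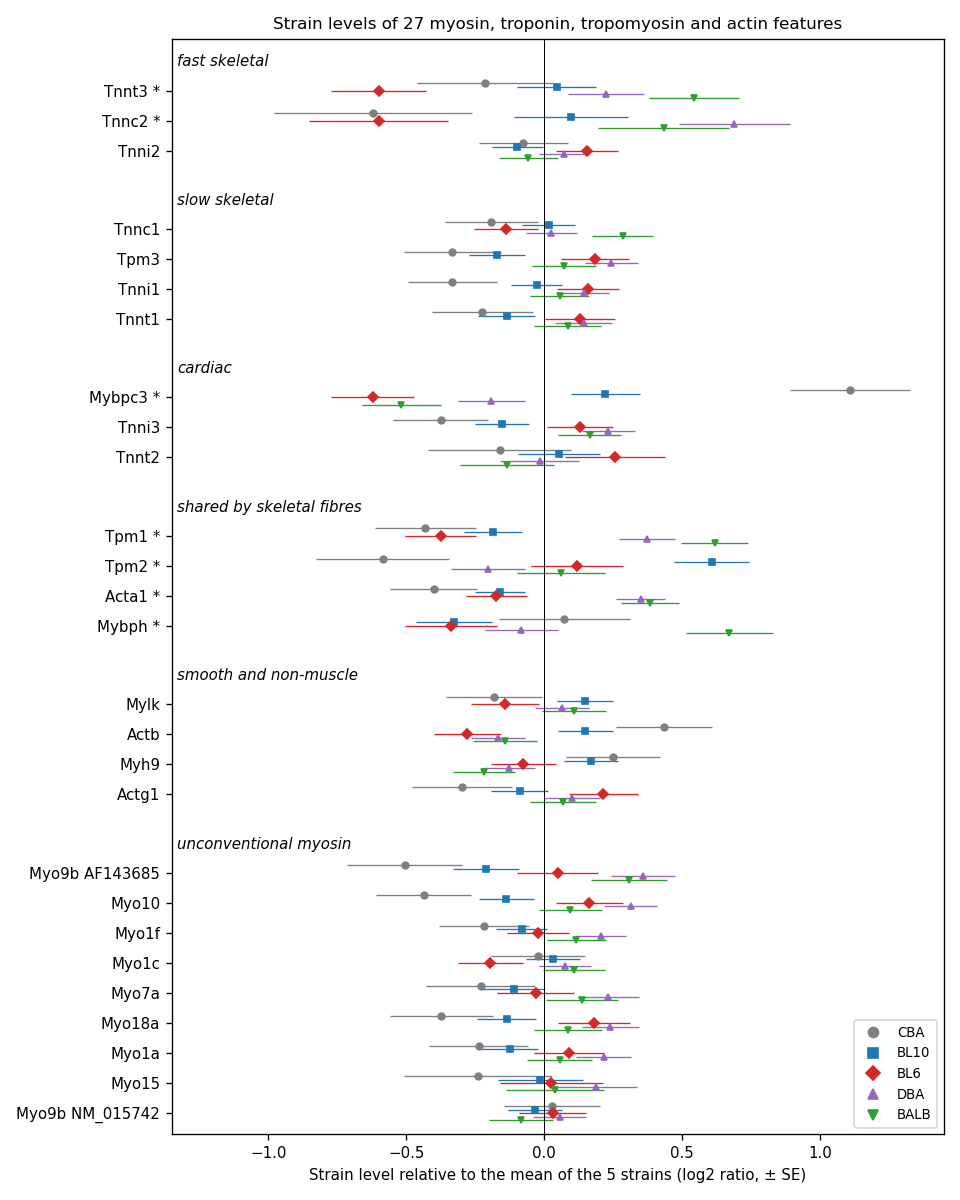
Level of each of the 27 features in each of the 5 strains, on the log2 scale relative to the mean of the strains, with its SE as a bar, from the model of 8 arrays (2 animals per strain). An asterisk marks the 7 features with an unadjusted p under 0.05 between strains. The 4 shared forms, Tnnt3, Tnnc2 and Mybpc3 span 0.78 or more between the strains, as does Myo9b AF143685 at 0.86, and the 4 slow forms 0.37 to 0.58.

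Tpm1 encodes alpha-tropomyosin, the main tropomyosin of fast fibres and heart. It was placed here with the shared forms, and the split by kind depends on this placing. Its log2 ratio was 1.42 for BALB 2 over BL6 2 and 1.36 for DBA 1 over BL6 1. It was 0.43 for CBA 2 over BL10 2, 0.15 for DBA 2 over BALB 1, 0.08 for CBA 1 over BL10 1, −0.15 for BL10 2 over DBA 1, −0.20 for BL6 1 over DBA 2 and −0.22 for BL10 1 over BALB 2. Both arrays with BL6 in Cy3 stood far above the other 6. Over all features these arrays had wide ratios too, with an SD of 0.559 on DBA 1 over BL6 1 and 0.545 on BALB 2 over BL6 2. The SD was 0.347 to 0.546 on the other 6. The SD of the difference between duplicate spots was 0.456 and 0.465 on these arrays, against 0.197 to 0.408 on the other 6. The duplicate spots of Tpm1 were among the closest on the arrays, with a root mean square difference of 0.05, at the 0.0974th percentile of all features. Its levels were 0.62 in BALB (SE 0.12), 0.37 in DBA (SE 0.10), −0.19 in BL10 (SE 0.10), −0.38 in BL6 (SE 0.13) and −0.43 in CBA (SE 0.18), with an unadjusted p = 0.000296 and an adjusted p = 0.142 by limma. BALB and DBA stood above the mean, and BL10, BL6 and CBA below it, with SE that overlap among the lower 3 strains. The place of CBA depended on the processing, since its level was 0.20 with all 10 arrays as labelled and 0.30 without the dye term. Under these settings BL6 stood at −0.63 and −0.79 and BL10 at −0.004 and 0.04, so BL6 alone lay far below the mean.

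Acta1 encodes skeletal alpha-actin, the actin of the thin filament in all skeletal fibres. Its log2 ratio was 1.10 for BALB 2 over BL6 2 and 1.01 for DBA 1 over BL6 1. The other 6 arrays lay between −0.01 and 0.49. The levels were 0.38 in BALB (SE 0.10), 0.35 in DBA (SE 0.09), −0.16 in BL10 (SE 0.09), −0.17 in BL6 (SE 0.11) and −0.40 in CBA (SE 0.16), with an unadjusted p = 0.00204 and an adjusted p = 0.154 by limma. The strains follow the order seen for Tpm1, again with BALB and DBA above the mean and with BL10 and BL6 at nearly the same level. The place of CBA moved here too, to 0.09 with all 10 arrays as labelled and to 0.36 without the dye term. BL10 and BL6 then stood apart, with BL10 at −0.02 and 0.08 and BL6 at −0.39 and −0.61. The unadjusted p of Acta1 between strains was 0.147 without the dye term by limma, and it was 0.0746 without BL10 1 and 0.107 without BL10 2.

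Tnnt3 encodes troponin T of fast fibres. Its log2 ratio was 1.61 for BALB 2 over BL6 2, 1.06 for DBA 1 over BL6 1 and 0.44 for CBA 2 over BL10 2. The other 5 arrays ranged from −0.41 for BL6 1 over DBA 2 to 0.10 for BL10 1 over BALB 2. Ratios were thus high where BL6 was in Cy3, and the lowest was found where BL6 was in Cy5. The levels were 0.54 in BALB (SE 0.16), 0.22 in DBA (SE 0.14), 0.05 in BL10 (SE 0.14), −0.21 in CBA (SE 0.25) and −0.60 in BL6 (SE 0.17), with an unadjusted p = 0.00196 and an adjusted p = 0.154 by limma. BL10, a strain closely related to BL6, lay above it by 0.64 (SE 0.28, unadjusted p = 0.0477, adjusted p = 0.364 by limma). The animals differed, with BL10 minus BL6 at 1.03 in the smaller chain and 0.28 in the larger.

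Tnnc2 encodes troponin C of fast fibres. Its log2 ratio was 2.22 for DBA 1 over BL6 1, the highest of any member on any array, and 0.82 for BALB 2 over BL6 2. It was −0.01 for both DBA 2 over BALB 1 and BL10 1 over BALB 2, −0.25 for CBA 1 over BL10 1 and −0.44 for BL10 2 over DBA 1. It was −0.65 for CBA 2 over BL10 2 and −0.84 for BL6 1 over DBA 2. The levels were 0.69 in DBA (SE 0.20), 0.43 in BALB (SE 0.24), 0.10 in BL10 (SE 0.21), −0.60 in BL6 (SE 0.25) and −0.62 in CBA (SE 0.36), with an unadjusted p = 0.00404 and an adjusted p = 0.184 by limma. The low level of CBA is weakly determined. Without BL6 1, which removes the array at 2.22, the difference of DBA minus CBA turned from 1.31 to −0.27, and without BALB 2 it was 2.36.

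Tnni2 encodes troponin I of fast fibres and did not share this pattern. Its 8 ratios lay between 0.16 and 0.51, with a median of 0.30, and its dye estimate was 0.33. The levels were 0.16 in BL6 (SE 0.11), 0.07 in DBA (SE 0.09), −0.06 in BALB (SE 0.11), −0.08 in CBA (SE 0.16) and −0.10 in BL10 (SE 0.09), a range of 0.25 at the 17.2nd percentile of all features (unadjusted p = 0.483 by limma). BALB minus BL6 was −0.21, with a 95% interval of −0.50 to 0.07, which does not reach the 1.14 of Tnnt3 (95% interval 0.71 to 1.58). In the RefSeq gene table Tnni2 and Tnnt3 lie on chromosome 7 with 1 coding gene between them. The 3 subunits of the fast troponin complex hence gave unequal values on the same arrays.

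**Figure D2:**
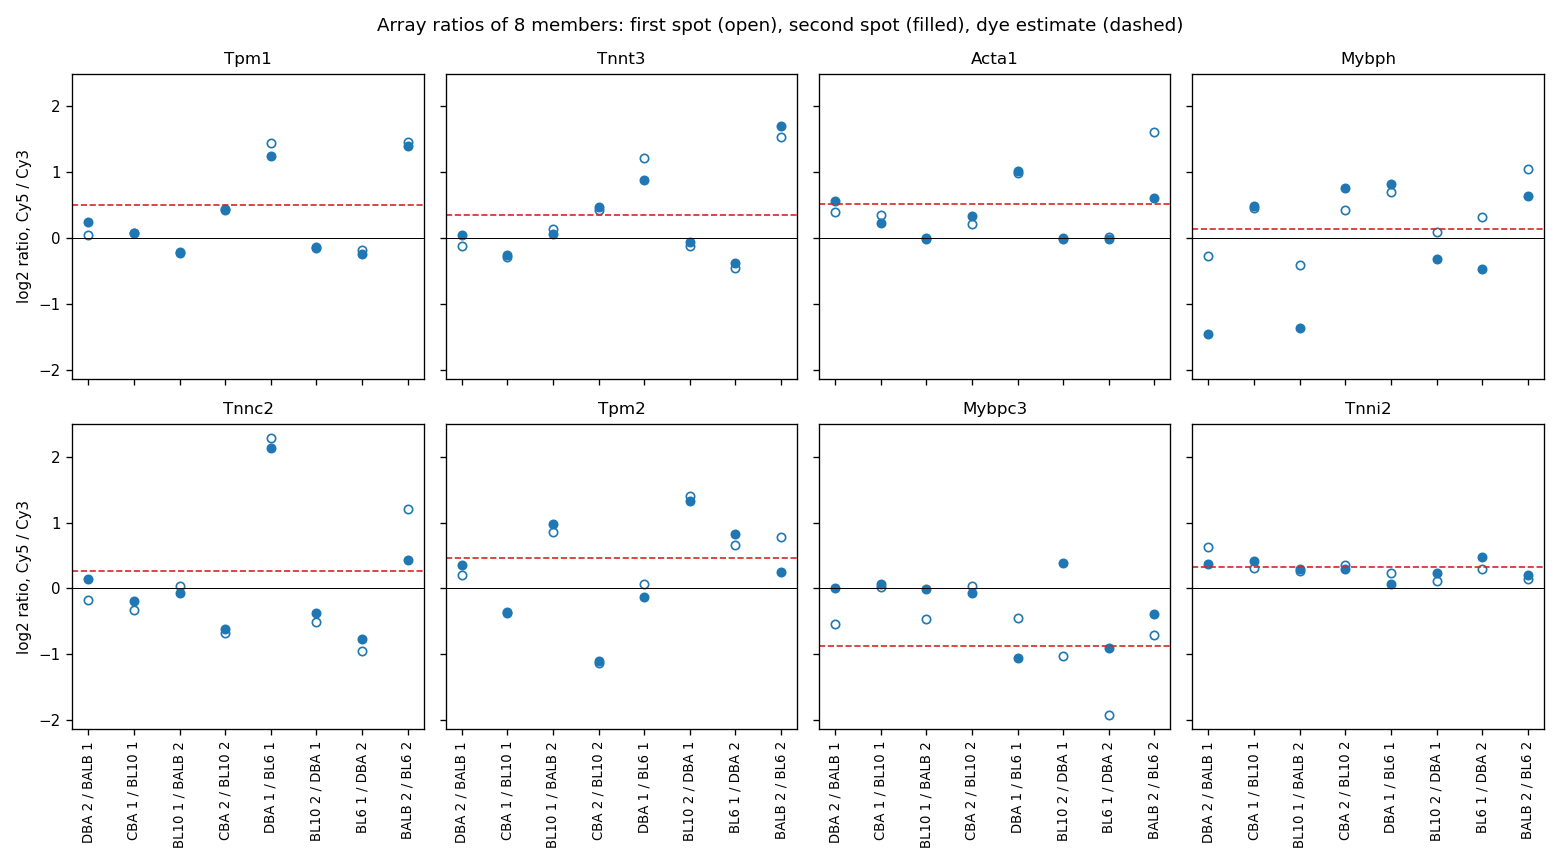
Log2 ratio of Cy5 over Cy3 on each of the 8 arrays for 8 members, with the first spot of each duplicate as an open circle, the second as a filled circle and the estimated dye effect as a dashed line. Tpm1, Tnnt3, Acta1 and Tnnc2 are highest on the arrays DBA 1 over BL6 1 and BALB 2 over BL6 2, Tpm2 is lowest on CBA 2 over BL10 2, and Tnni2 stays near its dye estimate of 0.33.

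Mybph encodes myosin-binding protein H, a thick filament protein related to myosin-binding protein C. Its log2 ratio was 0.84 for BALB 2 over BL6 2, 0.77 for DBA 1 over BL6 1, 0.59 for CBA 2 over BL10 2 and 0.48 for CBA 1 over BL10 1. It was −0.06 for BL6 1 over DBA 2, −0.12 for BL10 2 over DBA 1, −0.86 for DBA 2 over BALB 1 and −0.88 for BL10 1 over BALB 2. Both arrays with BALB in Cy3 were the lowest, and the array with BALB in Cy5 was the highest. The levels were 0.67 in BALB (SE 0.16), 0.07 in CBA (SE 0.24), −0.08 in DBA (SE 0.13), −0.33 in BL10 (SE 0.14) and −0.34 in BL6 (SE 0.17), with an unadjusted p = 0.00206 and an adjusted p = 0.154 by limma. Mybph thus stood below the mean in DBA, where Tpm1 and Acta1 stood above it, and BALB exceeded DBA by 0.76 (SE 0.19, unadjusted p = 0.00323, adjusted p = 0.854 by limma). Its duplicate spots differed by a root mean square of 0.70, at the 96.5th percentile, and the level of CBA was −0.23 by the first spot and 0.43 by the second.

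Tpm2 encodes beta-tropomyosin, which pairs with the alpha forms in fast and slow fibres. Its log2 ratio was 1.36 for BL10 2 over DBA 1, 0.92 for BL10 1 over BALB 2, −0.35 for CBA 1 over BL10 1 and −1.12 for CBA 2 over BL10 2. The other 4 arrays lay between −0.02 and 0.75. Each of the 4 arrays with BL10 thus placed it above its partner, whichever dye it carried. The levels were 0.61 in BL10 (SE 0.14), 0.12 in BL6 (SE 0.17), 0.06 in BALB (SE 0.16), −0.20 in DBA (SE 0.13) and −0.59 in CBA (SE 0.24), with an unadjusted p = 0.00104 and an adjusted p = 0.154 by limma. BL10 minus the mean of the other 4 strains was 0.76 (SE 0.17, unadjusted p = 0.00163, adjusted p = 0.449 by limma). The difference between strains rested on BL10 2 and on the spread shared across features. Without BL10 2, BL10 minus CBA fell from 1.19 to 0.80 with an unadjusted p = 0.14 between strains by limma, and an ordinary test gave an unadjusted p = 0.0709. Other members depended on the shared spread as well. The ordinary test gave an unadjusted p = 0.0931 for Tnnt3, 0.0886 for Mybph, 0.171 for Tnnc2 and 0.11 for Mybpc3. In Tpm2, BALB minus BL6 was −0.06 (95% interval −0.48 to 0.37), an interval that ends below that of Tpm1 (0.67 to 1.32).

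The promoters of 6 of these genes are shown, because 5 of them passed the unadjusted threshold and the sixth, Tnnc1, is the slow member with the largest value between BALB and BL6. Mybpc3 also passed and has a window, which is not shown. Of the 26 genes, 23 have a window in the RefSeq promoter table of build GRCm38.p6, and Tnnt3 and Tnni2 are among those without one. Each line gives the 150 bases before the start of the gene, 5′ to 3′ on the strand of the gene. Capitals mark matches, on either strand, of an E box (CANNTG), a TATA box (TATAAA), an MCAT element (CATTCC), a CArG box or a MEF2 site, which are letters known from muscle promoters. The windows are chr9:67049214-67049363 on the minus strand for Tpm1, chr8:123894776-123894925 on the minus strand for Acta1, chr1:134193298-134193447 on the plus strand for Mybph, chr2:164779735-164779884 on the minus strand for Tnnc2, chr4:43523555-43523704 on the minus strand for Tpm2 and chr14:31208162-31208311 on the plus strand for Tnnc1.
Tpm1: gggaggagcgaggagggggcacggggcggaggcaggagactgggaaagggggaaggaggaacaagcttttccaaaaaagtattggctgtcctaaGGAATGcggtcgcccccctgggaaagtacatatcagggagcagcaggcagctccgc
Acta1: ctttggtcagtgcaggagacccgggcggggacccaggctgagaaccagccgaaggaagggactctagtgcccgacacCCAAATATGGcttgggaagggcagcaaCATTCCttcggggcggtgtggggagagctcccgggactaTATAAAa
Mybph: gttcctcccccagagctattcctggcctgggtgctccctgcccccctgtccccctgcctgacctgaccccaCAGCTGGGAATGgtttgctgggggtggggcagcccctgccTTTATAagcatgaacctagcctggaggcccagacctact
Tnnc2: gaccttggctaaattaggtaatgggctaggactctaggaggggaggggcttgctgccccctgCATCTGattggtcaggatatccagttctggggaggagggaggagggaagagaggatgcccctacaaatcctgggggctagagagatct
Tpm2: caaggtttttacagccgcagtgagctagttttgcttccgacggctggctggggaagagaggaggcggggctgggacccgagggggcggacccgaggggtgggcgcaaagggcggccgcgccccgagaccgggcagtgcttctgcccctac
Tnnc1: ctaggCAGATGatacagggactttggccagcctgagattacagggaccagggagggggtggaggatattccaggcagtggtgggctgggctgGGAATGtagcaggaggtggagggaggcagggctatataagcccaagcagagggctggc

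The MCAT letters stand in 4 of these 6 windows, with the first base at 56 bases before the start in Tpm1, 46 in Acta1, 73 in Mybph and 58 in Tnnc1. Over the members, 7 of 23 genes (30.4%) hold them, against 7.59% of 32851 windows of the same length. The other genes with them are Myo10, Myo9b and Tnnt2. Acta1 also holds a CArG box at 73 bases, a match found in 0.916% of all windows, and in Actg1 among the other members. TATA letters begin 7 bases before the start in Acta1 and 39 in Mybph, and are found in 7.57% of all windows. E boxes occur in Mybph, Tnnc2 and Tnnc1, and in 47.7% of all windows. In Mybph the E box ends where the MCAT letters begin, without overlap. None of the 6 windows holds a MEF2 site, and that of Tpm2 holds no match at all. Mybpc3, whose window is not shown, is the 1 member gene of 23 with a MEF2 site (4.35%, against 0.332% of all windows). A match describes letters only and is no evidence that a factor binds.

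None of the 4 slow forms passed the unadjusted threshold, and their ranges, with a median of 0.48, lay near the 0.45 of all features. Tnnc1, the troponin C of slow fibres and heart, had log2 ratios of 0.80 for BALB 2 over BL6 2 and 0.64 for DBA 1 over BL6 1, and of 0.10 to 0.46 on the other 6 arrays. Its levels were 0.29 in BALB (SE 0.11), 0.03 in DBA (SE 0.09), 0.02 in BL10 (SE 0.10), −0.14 in BL6 (SE 0.12) and −0.19 in CBA (SE 0.17), with an unadjusted p = 0.0679 by limma. The arrays with BL6 in Cy3 were again the highest, as for Tpm1 and Acta1. Tpm3, the slow alpha-tropomyosin, stood at 0.24 in DBA (SE 0.10), 0.19 in BL6 (SE 0.12), 0.07 in BALB (SE 0.12), −0.17 in BL10 (SE 0.10) and −0.33 in CBA (SE 0.18), with an unadjusted p = 0.219 by limma. Its 8 ratios ran from 0.15 over a median of 0.39 to 0.76, all above 0, and its dye estimate was 0.53. Tnni1, the slow troponin I, stood at 0.16 in BL6 (SE 0.11), 0.14 in DBA (SE 0.09), 0.06 in BALB (SE 0.11), −0.03 in BL10 (SE 0.09) and −0.33 in CBA (SE 0.16), with an unadjusted p = 0.293 by limma. Its ratios ran from 0.10 over a median of 0.32 to 0.57, and its dye estimate was 0.41. Tnnt1, the slow troponin T, had the narrowest range of the slow forms, 0.37. It stood at 0.14 in DBA (SE 0.10), 0.13 in BL6 (SE 0.13), 0.09 in BALB (SE 0.12), −0.14 in BL10 (SE 0.10) and −0.22 in CBA (SE 0.18), with an unadjusted p = 0.638 by limma. Its ratios ran from 0.18 over a median of 0.40 to 0.74, and its dye estimate was 0.52. CBA was the lowest strain in all 4 slow forms, at −0.19 to −0.33. Without the dye term its place changed. BALB minus CBA in Tnnc1 was then −0.39, DBA minus CBA was −0.44 in Tpm3 and −0.64 in Tnnt1, and BL6 minus CBA in Tnni1 was −0.46.

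Of the heart forms, Mybpc3 passed the unadjusted threshold. It encodes cardiac myosin-binding protein C, a thick filament protein. Its log2 ratio was 0.05 for CBA 1 over BL10 1, −0.02 for CBA 2 over BL10 2, −0.23 for BL10 1 over BALB 2 and −0.27 for DBA 2 over BALB 1. It was −0.33 for BL10 2 over DBA 1, −0.55 for BALB 2 over BL6 2, −0.74 for DBA 1 over BL6 1 and −1.41 for BL6 1 over DBA 2. No array was far above 0, and those with CBA lay nearest to it. The level of 1.11 in CBA (SE 0.22) was reached through a dye estimate of −0.87. The other levels were 0.22 in BL10 (SE 0.12), −0.19 in DBA (SE 0.12), −0.52 in BALB (SE 0.14) and −0.62 in BL6 (SE 0.15), with an unadjusted p = 0.00675 and an adjusted p = 0.202 by limma. CBA minus BL6 was 1.73 with the dye term, −0.25 without it (unadjusted p = 0.965 by limma) and 0.01 with all 10 arrays as labelled (unadjusted p = 0.885). Its duplicate spots differed by a root mean square of 0.68, at the 95.9th percentile of all features, and the second spot alone gave an unadjusted p = 0.143 by limma. The ratios do not show whether the messengers of the heart forms are present in this muscle above background.

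The other heart forms did not pass. Tnni3, the cardiac troponin I, ranged from −0.38 in CBA to 0.23 in DBA (unadjusted p = 0.211 by limma), with 8 ratios between 0.01 and 0.60. Tnnt2, the cardiac troponin T, ranged from −0.16 in CBA to 0.26 in BL6 (unadjusted p = 0.361 by limma), and its ratios lay between −0.13 and 1.03. In the RefSeq table Tnnt1 and Tnni3 are neighbours on chromosome 7, and Tnni1 and Tnnt2 lie on chromosome 1 with 1 coding gene between them. Tnnt1 and Tnni3 both had CBA lowest, BL10 next and DBA, BL6 and BALB above the mean. The same was found in Tpm3, Tnni1, Actg1, Myo10, Myo18a, Myo1a, Myo15 and Myo9b AF143685, so it is not particular to these neighbours. Without the dye term CBA stood at 0.54 in Tnnt1 and 0.21 in Tnni3.

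The smooth muscle and non-muscle forms comprise Mylk, which activates smooth muscle myosin, the cytoplasmic actins Actb and Actg1, and Myh9, the heavy chain of a non-muscle myosin. Their unadjusted p were 0.116, 0.221, 0.51 and 0.337 by limma. Actb stood at 0.44 in CBA (SE 0.18), 0.15 in BL10 (SE 0.10), −0.14 in BALB (SE 0.12), −0.17 in DBA (SE 0.10) and −0.28 in BL6 (SE 0.12), and its ratios ran from −0.28 over a median of 0.10 to 0.27. Its duplicate spots differed by a root mean square of 0.70, at the 96.3rd percentile, and CBA minus BL6 was 0.08 by the first spot and 1.37 by the second. Actg1 stood at 0.22 in BL6 (SE 0.13), 0.10 in DBA (SE 0.10), 0.07 in BALB (SE 0.12), −0.09 in BL10 (SE 0.10) and −0.30 in CBA (SE 0.18), and all its ratios were above 0, from 0.18 over a median of 0.38 to 0.67. CBA and BL6 were thus placed the other way round than in Actb, but without the dye term Actg1 turned, to 0.41 in CBA and −0.20 in BL6. Actb and Actg1 proteins are nearly alike, and whether either oligonucleotide also bound the other messenger was not tested. Myh9 ranged from −0.22 in BALB to 0.25 in CBA and Mylk from −0.18 in CBA to 0.15 in BL10.

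The unconventional myosins carry cargo, link membranes to actin or serve sensory cells, and lie outside the sarcomere. Their 9 features had unadjusted p from 0.0541 to 0.841 by limma. The smallest was that of Myo9b AF143685, at 0.36 in DBA (SE 0.12) and −0.51 in CBA (SE 0.21). The other feature of Myo9b, NM_015742, ranged from −0.08 to 0.06, a range at the 3.16th percentile of all features, so the 2 features of this gene disagreed. Myo10, a motor of filopodia, came next with 0.31 in DBA (SE 0.10) and −0.44 in CBA (SE 0.17), and its dye estimate of 0.64 was the largest positive one among the members. The ranges of Myo1f, Myo1c, Myo7a, Myo18a, Myo1a and Myo15 lay between 0.31 and 0.61. DBA was above the mean in all 9 features, against 57.9% of all features, and CBA was above it in 1 (44% of all features).

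**Figure D3:**
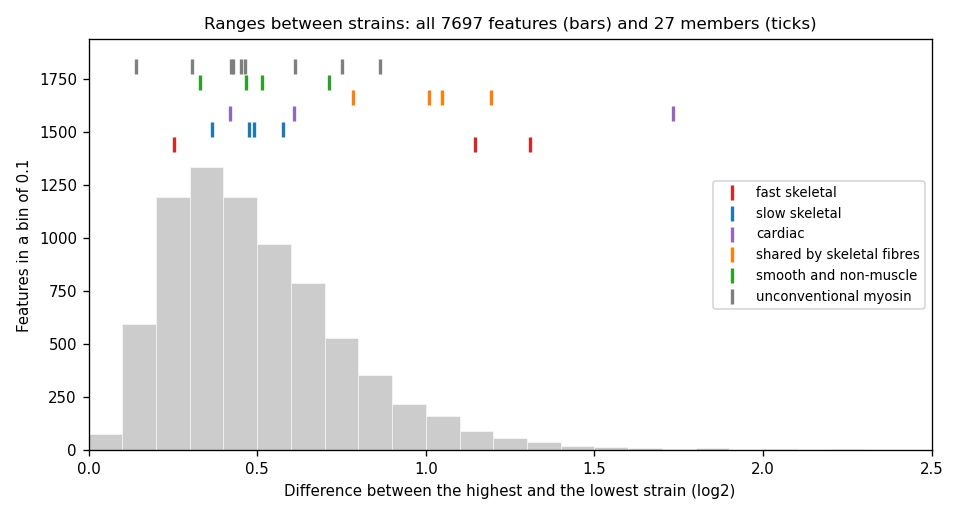
Number of all 7697 features in bins of the range between their highest and lowest strain (log2, bars; ranges above 2.5 are not drawn), with the range of each of the 27 members as a tick, in a row for each kind. Ticks for the 4 shared forms, Tnnt3, Tnnc2 and Mybpc3 lie at 0.78 or above, and those of the slow forms at 0.58 or below. The kinds overlap, with the unconventional myosin Myo9b AF143685 at 0.86 and the fast form Tnni2 at 0.25.

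Each strain was also set against the mean of the other 4. None of the 27 features passed an FDR of 10% by limma. Of all features, 0.0650% did for BL10 and for BL6, 0.0130% for DBA and none for CBA and BALB. The counts that follow are of unadjusted p under 0.05. DBA was higher in 9 members (33.3%), against 3.52% of all features, and lower in none (2.12%). These were Tnnc2 (0.86, SE 0.25), Tpm1 (0.47, SE 0.13), Myo9b AF143685 (0.45, SE 0.15), Acta1 (0.44, SE 0.11), Myo10 (0.39, SE 0.12), Tpm3 (0.31, SE 0.12), Myo18a (0.30, SE 0.13), Tnni3 (0.29, SE 0.12) and Myo1f (0.26, SE 0.11). Their adjusted p was 0.833 each. The mean of the other 4 strains includes CBA, whose level rests on the dye estimate. DBA minus CBA was 0.58 in Tpm3, 0.61 in Myo18a, 0.61 in Tnni3 and 0.75 in Myo10. DBA minus BL6 was 0.06, 0.06, 0.10 and 0.15 in these, and from 0.23 in Myo1f to 1.29 in Tnnc2 in the others. No member was higher in DBA than in BALB at this threshold (5.26% of all features passed in either direction). The count of 9 became 2 with all 10 arrays as labelled (3.14% of all features) and 1 without the dye term (0.676%). It also fell or rose when an animal was left out, which leaves a single animal in that strain, and the share of all features moved as well. Both DBA animals lie in the larger chain, so the smaller chain says nothing of DBA.

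BALB was higher in 5 members, Mybph (0.84, SE 0.20), Tpm1 (0.77, SE 0.15), Tnnt3 (0.68, SE 0.20), Acta1 (0.48, SE 0.13) and Tnnc1 (0.36, SE 0.14), against 7.15% of all features, and lower in 1, Mybpc3 (4.16% of all). BL6 was lower in 5 members, Mybpc3 (−0.78, SE 0.19), Tnnc2 (−0.75, SE 0.31), Tnnt3 (−0.75, SE 0.22), Tpm1 (−0.47, SE 0.16) and Actb (−0.35, SE 0.15), against 6.64% of all features, and higher in none (8.38%). BL10 was higher in Tpm2 and lower in Mybph, against 4.11% and 3.52% of all features. CBA was lower in 5 members, Tpm2, Myo9b AF143685, Myo10, Tpm1 and Acta1 (6.42% of all), and higher in Mybpc3 and Actb (5.08% of all). The 6 members of BALB became 1 with all 10 arrays as labelled (8.33% of all features) and 1 without the dye term (4.03%). The 7 of CBA became 2 (4.86%) and 1 (13.6%). The counts of the strains also moved when an animal was left out. Without DBA 1 those for BL6, BL10 and CBA were 15, 10 and 16, while 47.6%, 31.1% and 34.8% of all features passed.

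CBA was the lowest strain in 19 of the 27 members, and in 37.7% of all features. After the identical arrays are removed a CBA animal is found on only 1 array, always as Cy5 with BL10 as partner, and its level rests on the dye estimate. Across the 27 members the level of CBA and the dye estimate had a Pearson's r of −0.781, and across all 7697 features of −0.583, with the dye estimate entering both quantities. Of the members, 11 had a ratio above 0 on all 8 arrays (14.4% of all features) and 2 below 0 on all (20.1%). With the identical values entered once as BALB 1 over CBA 2, BALB minus CBA turned from 1.05 to −0.10 in Tpm1 and from 0.78 to −0.032 in Acta1. The median SE of a level over all features was 0.234 in CBA, against 0.131 to 0.164 in the other strains.

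BALB against BL6 was the pair of strains with the most features called, and in it 4 members were higher in BALB at an FDR of 10% by limma, namely Tpm1, Tnnt3, Mybph and Acta1. This is 14.8% of the members, against 3.75% of all features higher in BALB. None was lower, against 0.767%. This pair was picked after the values were seen. BALB minus BL6 was 0.99 in Tpm1 (SE 0.14, adjusted p = 0.0499 by limma), 1.14 in Tnnt3 (SE 0.19, adjusted p = 0.0572) and 1.01 in Mybph (SE 0.19, adjusted p = 0.0572). In Acta1 it was 0.56 (SE 0.12, adjusted p = 0.0669 by limma). Tnnc2 at 1.03 (SE 0.28) had an adjusted p = 0.103 and Tnnc1 at 0.42 (SE 0.13) an adjusted p = 0.131 by limma. Myo1c, an unconventional myosin, followed at 0.31 (SE 0.13, unadjusted p = 0.0464, adjusted p = 0.221 by limma). These are all the members with an unadjusted p under 0.05 in this pair. All but Tnnc1 and Myo1c in this list belong to the fast or shared forms. Tnni2 and Tpm2 are the fast or shared members that are not in it. In the other 9 pairs of strains no member passed this threshold. Of all features, 0.0650% did in BL10 against BL6 and in DBA against BL10, 0.0520% in BALB against BL10, 0.0390% in BL10 against CBA and none in the other 5 pairs. At an unadjusted p under 0.05 by limma, 10 members passed in DBA against CBA (11.1% of all features), 7 in DBA against BL10 (6.46%), 5 in BALB against BL10 (6.28%) and 4 in BALB against CBA (11.7%). In BL10 against CBA, BL10 against BL6 and CBA against BL6, 2 members passed each, against 12.3%, 13.4% and 11.1% of all features, and 1 passed in BALB against DBA (5.26%).

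The BALB and BL6 animals of the smaller chain and those of the larger are different mice. The difference was read in each chain once the common dye estimate was removed. It was 0.92 in the smaller and 1.06 in the larger chain for Tpm1, and 0.58 and 0.55 for Acta1. It was 1.27 and 1.13 for Tnnt3, 0.71 and 1.19 for Mybph, and 0.38 and 0.45 for Tnnc1. Tnnc2 was less even, with 0.55 and 1.39. With the dye estimate removed, each of these members was higher in BALB in both chains. Tnni2 was −0.15 and −0.25, and Tpm2 0.06 and −0.13. The dye estimate comes from a fit to both chains, so neither size nor sign is a separate reading. Arrays DBA 2 over BALB 1 and BL6 1 over DBA 2 join BALB 1 and BL6 1. Before dye removal their ratios placed BALB 1 below BL6 1 in Acta1 (0.49 and 0.0016) and Tnnc1 (0.14 and 0.25). They placed it above in Tnnt3 (−0.03 and −0.41), Mybph (−0.86 and −0.06) and Tnnc2 (−0.01 and −0.84), and slightly above in Tpm1 (0.15 and −0.20).

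**Figure D4:**
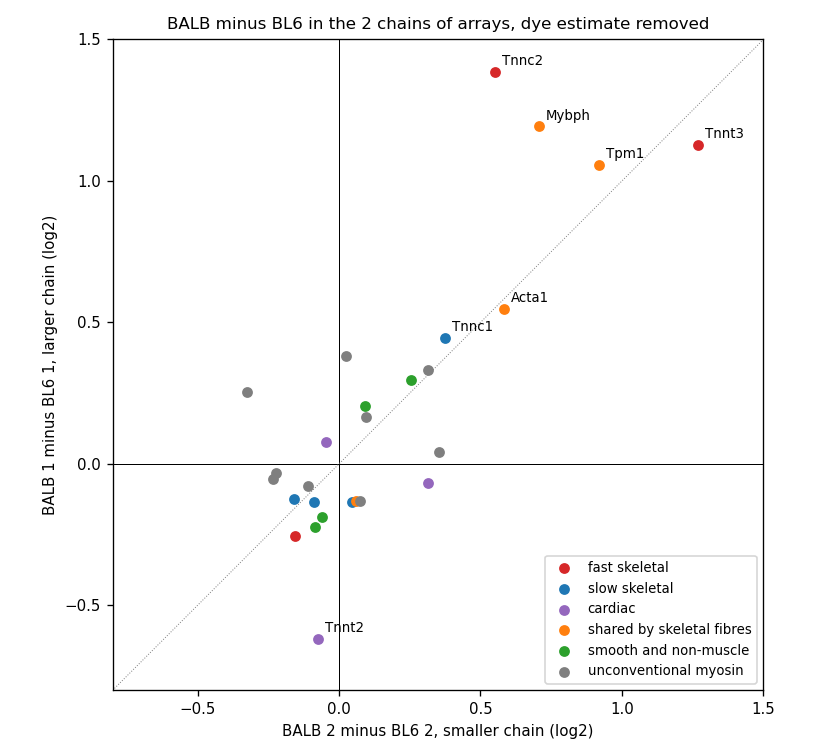
Difference of BALB minus BL6 (log2, dye estimate removed) for the 27 members in the smaller chain (BALB 2 and BL6 2, horizontal) and the larger chain (BALB 1 and BL6 1, vertical), coloured by kind, with the line of equal values dotted. Tpm1, Acta1, Tnnc1 and Tnnt3 lie near the line, and Mybph and Tnnc2 lie above it. The dye estimate is common to both chains, so closeness to the line and a shared sign are partly built in.

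The result rests on few mice and on the handling of the dyes. The count of 4 fell to 0 with all 10 arrays as labelled, with the first spot alone, without the dye term, with an ordinary test or without BALB 1, whereas it was 11 without BALB 2, 10 without DBA 1 and 9 without BL6 1, when 47%, 39.8% and 33.9% of all features were called. Under the first 3 of these settings the differences themselves stayed between 0.85 and 1.09 for Tpm1 and between 0.93 and 1.19 for Tnnt3, and lay between 0.72 and 1.03 for Mybph and between 0.50 and 0.83 for Acta1. Acta1 was the least stable of the 4. Its difference was 0.83 by the first spot and 0.29 by the second (adjusted p = 0.314 by limma), and its call was lost in 13 of 20 settings, among them those without BL10 1 and without BL10 2.

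DBA and BL6 are joined directly by arrays in both dye directions, DBA 1 over BL6 1 and BL6 1 over DBA 2, so their mean difference is free of the dye effect. In this measure DBA minus BL6 was 1.53 for Tnnc2, 0.78 for Tpm1, 0.73 for Tnnt3, 0.51 for Acta1 and 0.42 for Mybph. It was −0.38 for Tpm2, −0.12 for Tnni2 and −0.44 for Tnnt2. The values of Tnnc2, Tpm1 and Tnnt3 stood at the 99.9th, 99.3rd and 99.1st percentile of all features. A single BL6 mouse underlies both arrays. In the model DBA minus BL6 passed an unadjusted p under 0.05 in 5 members by limma, all higher in DBA, against 5.65% of all features, and passed an FDR of 10% in none, as no feature did.

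Genes that work beside the members were looked at with the same F test. Of 19 features of the sarcomere scaffold, which holds the filaments in register, 12 passed an unadjusted p under 0.05 by limma (63.2%, against 14.0% of all features) and 0 passed an FDR of 10%. They were 4 features of Neb, the giant protein along the thin filament, with Actn2, Tmod1, Tcap, Myom1, Des, Cfl2, Pdlim5 and Nrap. BALB lay above the mean in 18 of the 19, against 50.2% of all features, and BL6 in 5, against 55.7%. Tmod1, which caps the pointed end of the thin filament, stood at 0.55 in BALB and −0.44 in BL6, next to 0.62 and −0.38 for Tpm1. Of 10 features of fast-fibre partners 4 passed, Pvalb, Eno3, Myoz1 and Casq1. Pvalb, the calcium buffer of fast fibres, stood at 0.83 in DBA, 0.48 in BALB, 0.11 in BL6, −0.36 in BL10 and −1.07 in CBA (adjusted p = 0.0624 by limma). Of 10 features of slow-fibre partners 4 passed, Fabp3, Cryab, Casq2 and Car3. Their directions were not common, since Cryab, a small heat shock protein, stood at 0.54 in BALB and −0.98 in CBA, and Car3, a carbonic anhydrase, at −0.84 in BALB and 1.47 in CBA.

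Markers of other cells in a muscle were read in the same way. Of 5 fibroblast features 2 passed an unadjusted p under 0.05 by limma, Col1a1 and Col3a1, both lowest in BL6. Col1a1 stood at −0.65 in BL6 and 0.07 in BALB, and Col3a1 at 0.13 in BALB and 0.61 in BL10. Of 4 fat features 1 passed, Cidec, at 1.13 in CBA, and of 3 macrophage features 1, Cd68, at 1.05 in CBA. The 2 blood, 3 smooth muscle, 4 endothelium and 3 nerve features did not pass. The lists did not move as one. Pdgfra NM_011058, another fibroblast feature, was highest in BL6 at 0.39, and in CBA, Lep stood at −0.19 and Adipoq at −0.04 among the fat features, and Lyz2 at 0.09 and Adgre1 at −0.31 among the macrophage features. The part of these cells in the results was not tested.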

How the data were processed

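The authors extracted the spots of the 10 arrays with GenePix Pro 3.0, subtracted local background and normalized by VSN. The deposited values of 15552 spots are ratios of Cy5 over Cy3 on a log scale, read here as the natural log, the scale that VSN returns. Which spots GenePix flagged is not known from the values, so all were used. Ratios were converted to log2, duplicates (648 rows apart) and the 80 features of 1 control were averaged, and arrays were centred on their medians. Strain and gene-wise dye terms were fitted in limma 3.58.1 under R 4.3.3, with the animal as the replicate through 1 ratio of animal to array variance, estimated at 0.446. The fit of 8 arrays has 3 residual and 6.13 prior degrees of freedom. p-values were adjusted after Benjamini and Hochberg over 7697 features. Gene symbols are those of the array annotation, of which 6722 of 6752 were found in RefSeq. The differences within a chain used MASS 7.3.60.0.1. The steps were tested on simulated data. Figures were drawn with matplotlib 3.10.9.

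The rule for the members uses symbols alone. But the rule, the kinds of members, the lists of partner and marker genes and the tests were chosen with earlier results of these data known. Every member is given, with the level in each strain for those with an unadjusted p under 0.05, the fast and slow troponins and tropomyosins, and the actins. The pair BALB against BL6 was added after the values were seen. The alternatives were the identical arrays kept or entered once under either label, no centring, equal array spreads, single spots, no dye term, independent arrays, an ordinary test, a replicate block and leaving out each animal.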

Additional observations from a re-analysis of the deposited data

How the results depend on the processing

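With 2 animals per strain and 3 residual degrees of freedom, counts moved easily, and signal over background is not part of the values. Counts of members in this section have to be read beside the share of all features passing, which changed with the setting as well. Between strains at an FDR of 10% this share was 0.130% in the main fit. It was 2.55% with equal array spreads, 0.741% with a replicate block and 0.429% with the identical values entered once as BL6 2 against CBA 1. The animals of one number are not tied by the labels to a litter, batch or day. With the animal number as a replicate block, 1 member differed between strains at an FDR of 10% in place of 0, 4 in place of 7 passed in CBA, 1 in place of 2 in BL10, and the block changed no other count by over 1.5 times. The count at an FDR of 10% was 2 with the identical values entered once as BL6 2 against CBA 1 and 4 with equal array spreads, and 0 to 19 when an animal was left out (19 without DBA 1). The count of 7 at an unadjusted p under 0.05 was 3 by an ordinary test and 5 to 18 when an animal was left out, and leaving out DBA 2 was not run because the dye effect cannot then be estimated.

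For CBA, 7 members became 2 with all 10 arrays, 1 and 4 with the identical values entered once as BALB 1 or as BL6 2 over its CBA partner, 3 with equal spreads, 1 with the first spot, 1 without dye term, 3 with independent arrays and 2 to 16 without an animal. For BL10, 2 became 1 without dye term and 1 to 10 without an animal. For BL6, 5 became 3 with the second spot, 3 with independent arrays and 2 to 15 without an animal. For DBA, 9 became 2 with all 10 arrays, 2 and 5 with those values once as before, 4 with equal spreads, 1 without dye term and 1 to 14 without an animal. For BALB, 6 became 1 with all 10 arrays, 1 as BALB 1 against CBA 2, 1 without dye term and 2 to 8 without an animal. BALB against BL6 went from 4 to 0 with all 10 arrays, the first spot, no dye term or an ordinary test, and to 0 to 11 without an animal.

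The share of all features passing in these strain counts moved too. For CBA it was 4.86% with all 10 arrays, 13.6% with equal spreads or without dye term, and 7.15% with the first spot. For DBA it was 3.14% with all 10 arrays, 9.39% with equal spreads and 0.676% without dye term. For BALB it was 8.33% with all 10 arrays and 4.03% without dye term. BALB against BL6 had 0.039% with the first spot and 0% with all 10 arrays, no dye term or an ordinary test. Differences that turned without the dye term were Tnni2 (BL6 minus BL10, −0.17), Tnnc1 (BALB minus CBA, −0.39), Tpm3 and Tnnt1 (DBA minus CBA, −0.44 and −0.64), Tnni1 and Actg1 (BL6 minus CBA, −0.46 and −0.62), Mybpc3 (CBA minus BL6, −0.25) and Acta1 (BALB minus CBA, −0.29). With all 10 arrays Tnni1 was −0.031 and Tnnt1 −0.040, with the identical values as BALB 1 against CBA 2 BALB minus CBA was −0.10 in Tpm1 and −0.032 in Acta1, and without an animal DBA minus CBA was −0.27 (without BL6 1) to 2.36 in Tnnc2. The cause was not tested. Over the named differences 309 alternatives kept direction and side of the threshold, 41 lost it, 17 gained it and 13 turned. Other than for the adjusted p of BALB against BL6, the threshold is that of the F test over 5 strains, so this tally says little of size. BALB minus CBA in Tpm1, 1.05 in the report, is counted as kept at 0.02 with all 10 arrays and at 0.0001 without dye term.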
